A study of Drosophila melanogaster with 87 samples.

Results

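The chaperonin subunit genes CCT1 to CCT8 were followed across every group of the series. They are 8 of the 17562 genes in the count table. They were taken by a rule on their names that used no measured value, though earlier results of these data were known. CCT, also called TRiC, is a cytosolic double-ring chaperonin in which 8 different but related subunits each hold a fixed place in the ring. Newly made proteins fold inside its cavity with the use of ATP, and its best known substrates are tubulin and actin. Prefoldin hands unfolded actin and tubulin to the ring, phosducin-like proteins act as its cochaperones, and tubulin cofactors take over folded tubulin. Neurons and photoreceptors, whose long processes and light-sensing membranes rest on microtubules and actin, depend on this folding path.

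The series asked how N6-methyladenosine (m6A), a methyl mark on mRNA written by the enzyme Mettl3, shapes the response of the adult Drosophila brain to heat. All flies were males, by the labels collected for treatment 1 to 2 days after eclosion and by the methods for heat stress aged to 6 days, that carried DaGal4, which drives a UAS transgene in most tissues, with control RNAi (against mCherry, a protein flies do not have), Mettl3 RNAi or Ythdc RNAi, the last against the nuclear m6A reader Ythdc1. They were kept at 25 °C (basal), or were heated at 38.5 °C for 30 min (HS), and some then recovered for 6 h or 24 h. Brains were sequenced in 35 libraries of control and Mettl3 RNAi flies (6 basal and 6 HS libraries of each, 3 at 24 h of each, and at 6 h 2 of control and 3 of Mettl3 RNAi) and in a separate experiment of 12 libraries of control and Ythdc RNAi flies, 3 in each group. Heads, in pools of 200, gave an input and an m6A immunoprecipitate (m6A-IP) from the same fragmented RNA, with an antibody from Synaptic Systems (SYS, 2 pools per group, 16 libraries) or New England Biolabs (NEB, 3 pools per group, 24 libraries), in basal and HS flies of control and Mettl3 RNAi. Because the driver is ubiquitous, the knockdown was not limited to neurons. The methods describe same-group libraries as biological replicates, with repeats from crosses of different parents, but no label ties a library to its cross. For the brain libraries the methods also mention technical repeats, and the titles do not tell which libraries, if any, these are. Whether all 6 libraries of a group are independent is thus not known.

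Total counts were 19356178 to 65901563 in brain libraries, 12164686 to 17710227 in head inputs, 12035644 to 19583593 in SYS m6A-IP and 1318964 to 10525659 in NEB m6A-IP libraries. The knockdowns were visible in the counts: in basal brains Mettl3 stood at 2.20 to 2.98 CPM, the count scaled to a common library size, in controls and 0.608 to 1.11 CPM under Mettl3 RNAi, and Ythdc1 at 109 to 178 CPM in its controls and 32.8 to 33.3 CPM under Ythdc RNAi. Heat shock genes of a fixed list made up 0.0504 to 0.0681% of all counts in control brains without heat and 7.23 to 9.30% after HS, and the 13 of 14 that could be tested all rose. Some basal groups held more, with 0.0534 to 0.367% in Mettl3 RNAi brains, 0.172 to 0.238% in Ythdc RNAi brains (their controls 0.0820 to 0.0920%) and 0.333 to 0.552% in SYS inputs of Mettl3 RNAi heads (controls 0.104 to 0.185%). Neuronal marker genes were all detected in brain libraries, as were the 7 retinal markers, whose summed level was 21180 to 33977 CPM in basal and 32808 to 61036 CPM in HS control brains. In basal control head inputs the retinal sum was 18444 to 18761 CPM in NEB and 15651 to 15726 CPM in SYS pools. Brain and head libraries were scaled apart and made with different kits. In bulk RNA, fewer cells of a type and less RNA per cell cannot be told apart.

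Start-site sequence was compared with that of a classical heat shock gene, since heat is the treatment. Over 250 bases before to 50 bases after the start site in the Ensembl annotation, the DNA replication-related element TATCGATA, bound by the factor DREF at many growth and housekeeping genes, was searched on both strands and was present in 8.94% of 13968 promoters. CCT2 held it at 2 places and CCT5 at 1. The heat shock element was searched as GAANNTTC or TTCNNGAA (either form in 15.9% of promoters) and as a longer form of 3 alternating GAA and TTC units, each again NN apart and starting with either unit (0.43% of promoters), which contains the short forms. CCT2 and CCT8 each held one short form, and none of the 8 genes held a long form. Of the heat shock genes searched alongside, Hsp70Aa carried the long form, while Hsp23, DnaJ-1 and Hsp83 did not, so these letters do not set the CCT genes apart from heat shock genes. These windows are shown because CCT2 was the subunit least like the others across the brain libraries, as described below, and the capitals mark the matched motif. Each is written on the strand of its gene in dm6, with the position of the motif's first base relative to the start site.
CCT2 TATCGATA at -140, chrX:9089362-9089391: cctgcattgcaTATCGATAactgcaaaact
CCT2 TATCGATA at -22, chrX:9089480-9089509: tagccgcgcgtTATCGATAacagccatcga
CCT2 GAANNTTC at 42, chrX:9089544-9089562: gtgtggtatttGAAAATTC
Hsp70Aa long form at -56, chr3R:11956579-11956608: cgcgcctcGAATGTTCGCGAAaagagcgcc
In Hsp70Aa the 3 alternating GAA and TTC units run without a break, whereas the CCT2 match has a single pair and lies after the start site. A match is a description of letters and no evidence of binding.

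The 8 genes are spread over the genome (dm6). CCT1 (FBgn0003676) lies at chr3R:22489105-22491439 on the minus strand, CCT3 (FBgn0015019) at chr3R:16647605-16649978 on the plus strand and CCT7 (FBgn0037632) at chr3R:8801564-8806234 on the plus strand. CCT2 (FBgn0030086) lies at chrX:9089513-9092826 and CCT6 (FBgn0027329) at chrX:15746648-15748971, both on the plus strand. CCT4 (FBgn0032444) lies at chr2L:12690336-12692934 on the minus strand, CCT5 (FBgn0010621) at chr2R:12174802-12177516 on the plus strand and CCT8 (FBgn0284436) at chr2R:8904844-8906990 on the minus strand. Their merged exons cover 1904 to 2165 bases and their coding sequences 1599 to 1671 bases, so the genes are close in length. CCT5 and CCT7 share exon bases with a gene on the opposite strand, CCT5 with EndoG over 87 bases (4.39% of its exons) and CCT7 with CG9839 over 10 bases (0.509%). Whether strand was used in counting is not given in the sources used here, so reads from these stretches may belong to either gene.

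The 8 transcripts were found at similar levels in basal control brains. Per kilobase of exon, CCT8 stood at 17.6 ± 0.81 CPM (SD, n = 6), CCT6 at 17.5 ± 1.45 and CCT2 at 16.6 ± 0.68, followed by CCT4 at 13.7 ± 1.13, CCT1 at 12.8 ± 0.47, CCT3 at 11.5 ± 1.17, CCT5 at 10.7 ± 1.31 and CCT7 at 9.76 ± 0.67. The only step between neighbours that exceeded the sum of their SDs was that from CCT2 to CCT4. The highest level was 1.80 times the lowest. In the controls of the Ythdc experiment CCT2 stood highest (18.8 CPM per kb) and CCT7 again lowest (9.12), a ratio of 2.06. Head inputs spanned less, with a ratio of 1.41 in both antibody experiments, and there CCT4 led in the NEB and CCT3 in the SYS pools. Brain and head libraries were scaled apart and made with different kits, so levels are set side by side and not tested.

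**Figure D1:**
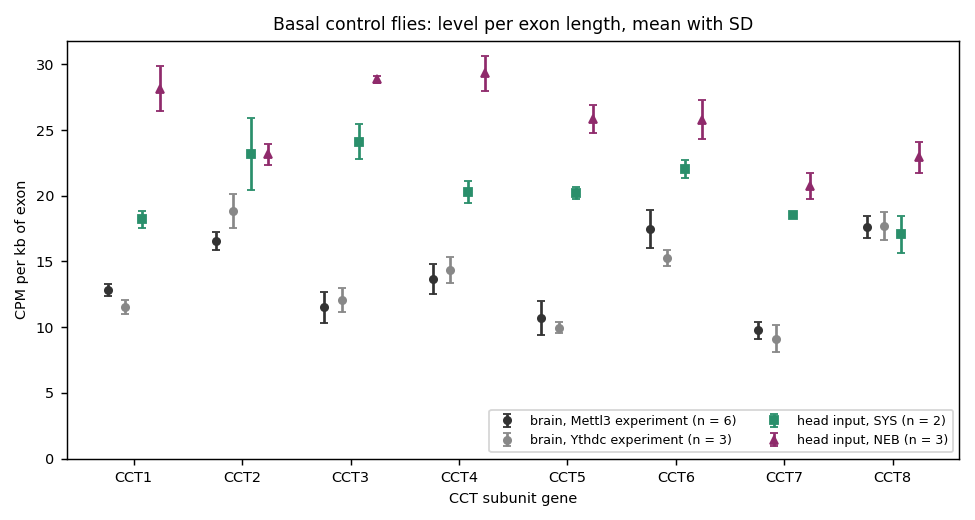
Level of each CCT subunit in basal control flies, in CPM per kilobase of merged exon (points, mean; bars, SD) in brains of the Mettl3 experiment (n = 6), brains of the Ythdc experiment (n = 3) and head inputs of the SYS (n = 2) and NEB (n = 3) experiments. Within the brains of the Mettl3 experiment the subunits differed by 1.80 times from lowest to highest, and CCT7 was lowest in both brain experiments.

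The first comparison asked what 30 min of heat did to the subunits in control brains. Heat at 38.5 °C left the chaperonin transcripts level or slightly lower while the heat shock genes rose by a median of 8.90 on the log2 scale. CCT4 had the clearest fall: basal libraries ran from 23.9 CPM through a median of 25.6 to 28.9, and HS libraries from 16.5 through 19.7 to 21.0. The HS and basal libraries did not overlap for CCT4, whose log2 change was -0.41 ± 0.07 (SE, adjusted p = 0.000517). CCT6 ran from 30.5 through 32.6 to 38.4 CPM in basal and from 26.1 through 29.1 to 29.9 CPM in HS brains. Here too the groups did not overlap, and the change was -0.21 ± 0.06 (adjusted p = 0.0101). An exact two-sided permutation test gave CCT4 and CCT6 p = 0.00216 each, the smallest that 6 against 6 libraries can give, among 32 such tests run, and CCT3 0.00433, CCT1 0.00649 and CCT7 0.0130, unadjusted. CCT1 went from 24.2, 25.4 and 26.7 CPM (lowest, median, highest) to 18.4, 21.4 and 24.9, and CCT3 from 21.8, 24.6 and 27.9 to 17.8, 19.0 and 22.3. For both the ranges overlapped at their edges, with log2 changes of -0.21 ± 0.07 (adjusted p = 0.0188) and -0.32 ± 0.09 (adjusted p = 0.00783).

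The remaining subunits did not pass the test in control brains. CCT2 stood at 33.6, 34.9 and 37.7 CPM in basal and 34.2, 38.8 and 41.3 in HS brains, a change of 0.14 (adjusted p = 0.0616). CCT5 ran from 19.3 through 20.2 to 26.0 and from 18.4 through 19.9 to 21.9 CPM, a change of -0.05. CCT7 had -0.16 (adjusted p = 0.0629) and CCT8 had 0.01, with basal and HS libraries overlapping for all 4 of these subunits. In all, 4 of 8 members fell and none rose, where 29.2% of the 10049 genes tested fell, and 2 members fell without overlap, where 20.2% of genes did. The median change of the members was -0.19, against -0.02 over all genes. The falls had larger values in replicates 1-3 than in the more deeply sequenced replicates 4-6, a difference that was not tested. Within replicates 1-3 CCT3 had -0.51, CCT4 -0.46, CCT1 -0.31 and CCT6 -0.24, and within replicates 4-6 the values were -0.14 (adjusted p = 0.344), -0.38 (0.0170), -0.13 (0.226) and -0.19 (0.0479). CCT2 had 0.06 in the first set and 0.20 (adjusted p = 0.0278) in the second. CCT7, not called over all libraries, had -0.29 (adjusted p = 0.0202) in the first set and -0.06 (0.605) in the second. Scaled by library totals instead, where heat shock genes take up counts and the median of all genes moves to -0.41, all 8 members were called lower, so the signs of CCT2 (-0.26) and CCT8 (-0.39) turn. Cell type markers moved with HS as well. Of the markers 6 of 7 retinal, 3 of 4 neuronal and 3 of 4 glial genes rose and 1 glial gene fell, where 19.7% of all genes rose, and the neuronal sum went from 3991 to 6514 CPM in basal libraries to 6804 to 7492 in HS libraries, without overlap. The glial sum had a median of 1777 CPM at basal and 2302 after HS. Their part in the result was not tested.

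**Figure D2:**
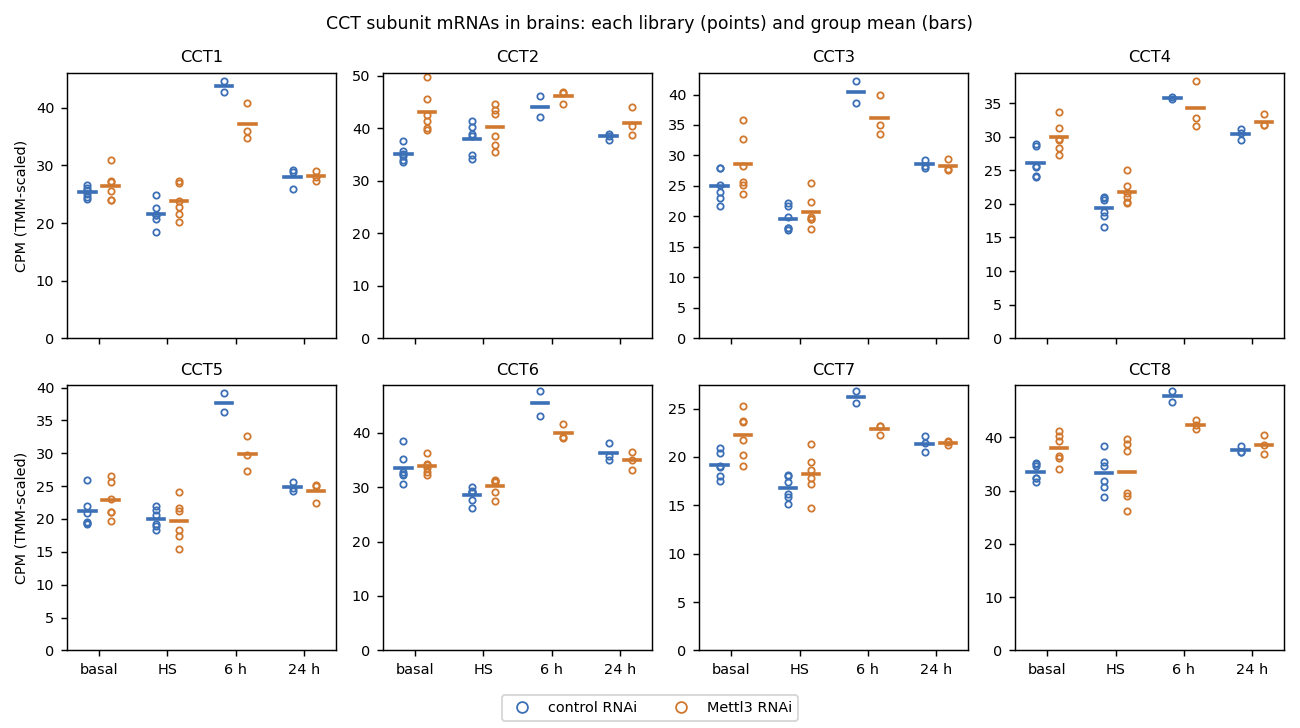
CPM of each CCT subunit in the 35 brain libraries of the Mettl3 experiment by condition (points, libraries; bars, group means), control RNAi beside Mettl3 RNAi. For CCT4 the HS libraries of control brains (16.5 to 21.0 CPM) lie below the basal ones (23.9 to 28.9), and for CCT1 the 6 h libraries (42.8 and 44.7 CPM) lie above every other control library.

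Mettl3 RNAi brains, compared with their own basal libraries, showed the same kind of small falls. CCT4 again had the lowest adjusted p, and went from 27.3, 29.6 and 33.7 CPM (lowest, median, highest) to 20.1, 21.3 and 25.0. The groups did not overlap, and the log2 change was -0.44 ± 0.07 (adjusted p = 0.000241). CCT3 changed from 23.7, 27.0 and 35.7 to 18.0, 19.7 and 25.4 CPM, with overlap, by -0.44 ± 0.12 (adjusted p = 0.00821). CCT6 (-0.15 ± 0.05, adjusted p = 0.0240, no overlap) and CCT7 (-0.27 ± 0.10, adjusted p = 0.0343) were the other members called, which makes 4 of 8 where 28.2% of genes fell and 18.5% fell without overlap. CCT1 (-0.14), CCT2 (-0.08), CCT5 (-0.19) and CCT8 (-0.16) did not pass. Within replicates 1-3 alone 6 members were called, from -0.72 for CCT3 to -0.25 for CCT6, and within replicates 4-6 CCT4 alone (-0.28, adjusted p = 0.0283), and DESeq2 called 2 members in place of 4. The heat responses of the genotypes were then compared by an interaction term. It ranged from -0.21 for CCT2 to 0.08 for CCT1, and edgeR called none of the 8, in a fit that called 0% of all genes; DESeq2 also called 0 and 1 member had an unadjusted p under 0.05. For CCT4, the difference was -0.02 with a 95% interval of -0.23 to 0.19.

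By 6 h after heat the picture had turned, and the whole set stood above its HS level. CCT1 in control brains was at 44.7 and 42.8 CPM at 6 h, above the highest HS library at 24.9 and the highest basal library at 26.7. CCT5 was at 39.2 and 36.3 CPM at 6 h, against at most 21.9 in HS and 26.0 in basal brains. Against HS replicates 1-3, which carry the same replicate numbers, the log2 changes were 1.11 for CCT3, 1.10 for CCT1, 0.95 for CCT5, 0.84 for CCT4, 0.74 for CCT7, 0.65 for CCT8, 0.62 for CCT6 and 0.29 for CCT2. Adjusted p ran from 0.000142 for CCT3 to 0.0169 for CCT2. All 8 members were called higher and did not overlap between groups, where 32.2% of genes were called higher and 40.2% stood higher without overlap. The members' median was 0.79, and that of all genes 0.05. In Mettl3 RNAi brains all 8 were again called higher (34.9% of all genes), from 0.34 for CCT2 through 0.81 for CCT1 to 0.95 for CCT3, with a median of 0.69 against 0.03. Marker sums of control brains moved the other way. The retinal sum was 32808 to 61036 CPM in HS and 19993 and 22096 in 6 h libraries. The neuronal sum was 6804 to 7492 and then 4885 and 5165, and the glial sum 1822 to 2357 and then 1376 and 1470. The muscle sum also lay lower without overlap, while the head fat body and midgut sums overlapped. Their part in the rise was not tested.

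Set against basal brains, the 6 h level tells how far the subunits overshot. The control libraries gave 46.1 and 42.1 CPM for CCT2, 38.5 and 42.3 for CCT3, 36.0 and 35.7 for CCT4, 47.6 and 43.2 for CCT6, 26.8 and 25.6 for CCT7, and 48.6 and 46.7 for CCT8. Each pair stood above every basal library of replicates 1-3 for each of the 8 members, a pattern found for 24.0% of all genes. The log2 changes were 0.81 ± 0.13 for CCT5 (adjusted p = 0.0169), 0.80 ± 0.09 for CCT1 (0.00490), 0.61 ± 0.09 for CCT3 (0.0138), 0.51 ± 0.08 for CCT8 (0.0169), 0.46 ± 0.09 for CCT7 (0.0266) and 0.40 ± 0.09 for CCT4 (0.0425). CCT6 (0.40, adjusted p = 0.0601) and CCT2 (0.36, adjusted p = 0.0602) did not pass. So 6 of 8 members were called higher, where 3.86% of genes were, and the members' median was 0.49 against 0.03 for all genes. With 2 libraries at 6 h this count is fragile: it was 1 without basal replicate 1 or without 6 h replicate 1, 2 without 6 h replicate 2, 4 without basal replicate 3 and 8 without basal replicate 2. Where a 6 h library was left out, the lone library was taken to vary like the other group. Of the marker lists, 2 of 5 head fat body genes tested fell at 6 h and no retinal, neuronal or glial gene was called. The retinal sum was 19993 and 22096 CPM, and the glial sum, at 1376 and 1470 CPM, lay below every basal library (1552 to 1917). The sum of midgut markers, foreign to the brain, was 194 and 815 CPM at 6 h and 18.1 to 663 CPM in basal libraries. The higher of these 6 h libraries thus held more than any basal one. Their part in the rise was not tested.

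**Figure D3:**
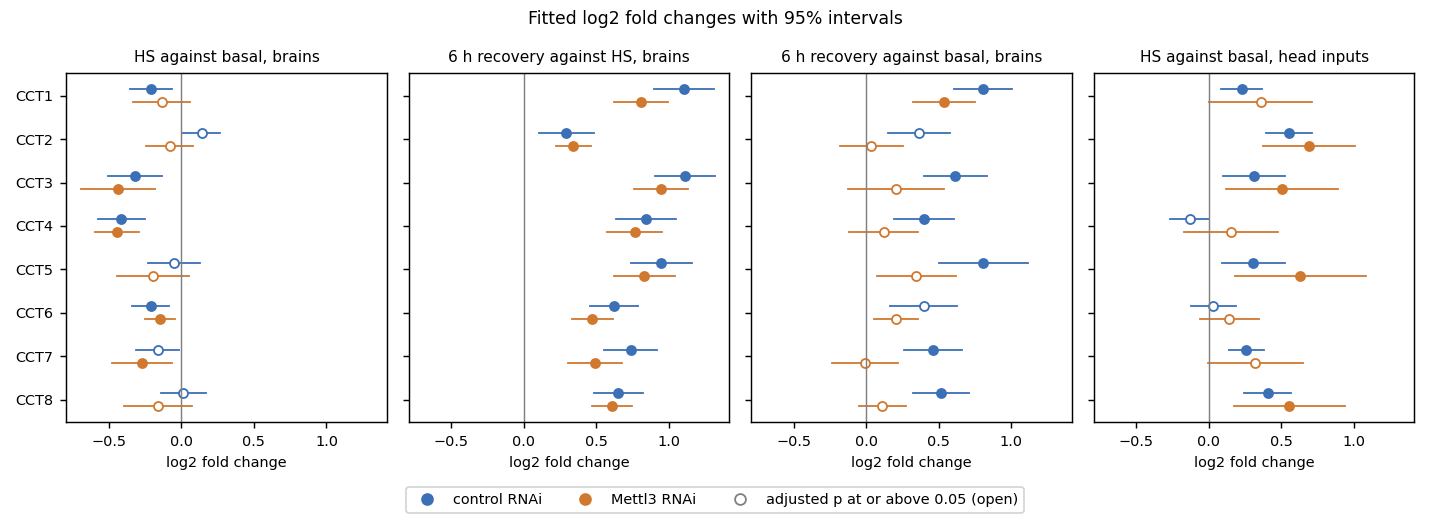
Log2 change of each CCT subunit with its 95% interval for HS against basal brains, 6 h recovery against HS brains, 6 h recovery against basal brains and HS against basal head inputs, in control and Mettl3 RNAi flies; open symbols have an adjusted p of 0.05 or more. In brains the HS values lie at or below 0 for most members, and all 8 lie above 0 for 6 h against HS, from 0.29 for CCT2 to 1.11 for CCT3 in controls.

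Under Mettl3 RNAi the 6 h libraries lay closer to their basal ones. CCT1 stood at 34.7, 40.8 and 36.0 CPM at 6 h, and its 6 basal libraries at 24.0, 26.4 and 30.9 (lowest, median, highest). These did not overlap. Against basal replicates 1-3, the only basal libraries of the fit, 16.0% of genes stood higher at 6 h without overlap. The change of CCT1 in that fit, 0.54, passed narrowly (adjusted p = 0.0463). CCT5 was at 29.8, 32.7 and 27.3 CPM, a change of 0.35 that did not pass (adjusted p = 0.129). The others ranged from -0.01 for CCT7 to 0.20 for CCT3 and CCT6, so 1 of 8 members was called, where 0.892% of genes were. That call was lost (0 members) without basal replicate 1 or 3 or any one of the 6 h libraries, and 5 members were called when basal replicates 1 and 3, whose heat shock gene share was highest, were replaced by the other basal libraries, a choice made after seeing the data. The test of the difference between genotypes in the 6 h response gave values from -0.15 for CCT6 to -0.43 for CCT7, all negative. None was called by edgeR or DESeq2, in a fit that called 0% of genes, while 2 members (CCT7 and CCT8) had an unadjusted p under 0.05. Without Mettl3 RNAi basal replicate 2 this count became 2. Compared at 6 h itself, Mettl3 RNAi minus control gave CCT5 at -0.33, CCT1 at -0.23, CCT7 at -0.19, CCT6 at -0.18 and CCT8 at -0.17. These 5 stood lower in each Mettl3 RNAi library than in either control library (20.2% of all genes did) and had an unadjusted p under 0.05, but 0 were called by either tool, where 1.60% of genes were called lower and 1.39% higher.

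The rise was gone or nearly so at 24 h. Control brains then held CCT1 at 25.9, 28.9 and 29.3 CPM, CCT2 at 37.8, 38.5 and 39.0 and CCT5 at 24.8, 24.2 and 25.6. Of these, CCT1 and CCT5 overlapped the basal libraries and CCT2 lay just above the highest of them. The 24 h and basal libraries of replicates 1-3 differed by 0.06 (CCT6) to 0.19 (CCT5) on the log2 scale, and no member was called by edgeR or DESeq2, where 0.0409% of genes were called higher and 0.194% lower; CCT8 (0.16) had an unadjusted p under 0.05. Mettl3 RNAi brains held CCT1 at 27.9, 27.3 and 29.0 CPM and CCT4 at 33.3, 31.7 and 31.7. Their changes from basal ran from -0.15 for CCT3 to 0.13 for CCT1 with 0 members called by either tool and 0 at an unadjusted p under 0.05, although 2 were called lower once basal replicate 2 was left out. The difference between genotypes in the 24 h response was called for 0 members by either tool (2 at an unadjusted p under 0.05; 3 called without Mettl3 RNAi basal replicate 2), and Mettl3 RNAi and control brains at 24 h differed by -0.05 to 0.10 with none called by either tool or at an unadjusted p under 0.05, where 5.33% of genes were called higher and 3.86% lower. Summed over the 8 members, control brains held 219 ± 12.5 CPM (SD, n = 6) at basal, 197 ± 10.2 after HS, 321 ± 9.08 (n = 2) at 6 h and 245 ± 4.06 (n = 3) at 24 h. Mettl3 RNAi brains held 245 ± 20.0, 208 ± 22.0, 289 ± 14.6 and 249 ± 5.94 CPM.

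Without heat, edgeR called a single subunit between Mettl3 RNAi and control brains. CCT2 ran from 33.6 through 34.9 to 37.7 CPM in basal control brains and from 39.7 through 41.9 to 49.7 under Mettl3 RNAi, with no overlap. Its log2 change was 0.30 ± 0.06 (adjusted p = 0.0284). Exact permutation tests gave an unadjusted p of 0.00216 for CCT2, 0.00866 for CCT8, 0.0173 for CCT4 and 0.0260 for CCT7. CCT7 (0.22), CCT4 (0.20), CCT3 (0.20), CCT8 (0.18), CCT5 (0.11), CCT1 (0.06) and CCT6 (0.01) did not pass in edgeR, so 1 of 8 members was called, where 1.58% of genes were called higher and 2.03% stood higher without overlap. The call on CCT2 was not firm: it was lost without Mettl3 RNAi replicate 3 or control replicate 1, 3, 4, 5 or 6, while its value was 0.38 within replicates 1-3 and 0.23 within replicates 4-6 (adjusted p = 0.138 and 0.0835). After HS no member was called between Mettl3 RNAi and control brains by edgeR or DESeq2, with changes of -0.03 to 0.17 and 1 member, CCT4, at an unadjusted p under 0.05; 3.60% of genes were called higher and 2.72% lower. These comparisons share libraries with the HS comparisons above.

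The Ythdc experiment gave a second set of control brains. In these controls CCT4 was at 28.7, 28.4 and 25.4 CPM at basal and at 19.6 to 23.6 CPM after HS. The groups did not overlap (25.3% of genes fell without overlap), and the log2 change of -0.33 was close in size to that of the Mettl3 experiment but did not pass (adjusted p = 0.0644). CCT7 (0.28) and CCT8 (0.25) had values above 0. None of the 8 was called by edgeR or DESeq2 and 3 had an unadjusted p under 0.05, where 13.5% of genes fell and 5.22% rose; 1 was called without basal replicate 8. Midgut markers, foreign to the brain, moved with HS in these controls, 6 of 7 called higher and their sum at 28.1 to 160 CPM in basal and 638 to 1250 CPM in HS libraries, with none at 0; their part in these values was not tested. Ythdc RNAi brains held CCT4 at 33.3, 31.4 and 32.1 CPM at basal and 23.9, 24.5 and 22.0 after HS, with no overlap (36.2% of genes fell so). There CCT4 fell by 0.48 (adjusted p = 0.000595), CCT6 by 0.23 (0.00594), CCT5 by 0.20 (0.0447) and CCT3 by 0.18 (0.0349) on the log2 scale. This made 4 of 8, in a fit that called 32.8% of genes lower, and 2 with DESeq2, without basal replicate 1 or without HS replicate 3. The difference between genotypes in the heat response was called for 0 members by either tool (values of -0.36 to -0.11, 2 at an unadjusted p under 0.05), where 0.131% of genes were called higher and 0.168% lower.

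Ythdc RNAi brains held more of every subunit at basal. CCT1 was at 33.5, 30.8 and 30.0 CPM, against 24.0, 22.6 and 22.0 in their controls. CCT3 was at 32.3, 32.9 and 34.5 CPM against 27.6, 23.8 and 27.0, and CCT8 at 42.4, 42.7 and 42.4 against 35.7, 31.7 and 33.8. All 8 members stood higher in each knockdown library than in any control, as did 22.0% of all genes. The log2 differences ran from 0.21 for CCT2 to 0.44 for CCT1, and all 8 had an unadjusted p under 0.05. Only CCT1 passed (0.44 ± 0.08, adjusted p = 0.0346), where 0.774% of genes were called higher. The count was 0 without control replicate 7 or 9 or any one of the Ythdc RNAi libraries, 6 without control replicate 8, and 4 with DESeq2. After HS, CCT1 again stood higher in the knockdown, at 30.1, 28.5 and 28.4 CPM against 20.7 to 24.2, by 0.33 ± 0.07 (adjusted p = 0.0422; 2.45% of genes were called higher), a call lost on leaving out any one of the 6 libraries. Summed over the members, basal levels were 217 ± 5.05 CPM in controls and 270 ± 3.91 under Ythdc RNAi (SD, n = 3), and HS levels 228 ± 19.2 and 248 ± 2.98. Fat body markers moved the other way, from a summed 1750 to 3101 CPM in basal controls to 796 to 933 under Ythdc RNAi with none of their 7 genes at 0, and the heat shock gene share was higher in the knockdown, as given above. Their part in the difference was not tested.

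In whole heads of control flies 6 subunits were called higher after heat, whereas in control brains of the Mettl3 experiment 4 were called lower and none higher. The sign did not differ for every member: CCT2 and CCT8 had values above 0 and CCT4 below 0 in both. CCT2 rose in every pool: control inputs of the NEB experiment held 48.2, 48.0 and 51.1 CPM at basal and 69.2, 65.0 and 68.8 after HS, and those of the SYS experiment 45.1 and 53.2 against 87.9 and 70.9. No HS pool overlapped a basal one, and with the antibody experiment as a term the log2 change was 0.56 ± 0.07 (adjusted p = 0.000224). CCT7 also rose without overlap, by 0.26 (adjusted p = 0.00435). CCT8 rose by 0.41 (adjusted p = 0.00169), CCT3 by 0.31 (0.0273), CCT5 by 0.31 (0.0307) and CCT1 by 0.23 (0.0180), with overlap between the pooled groups. CCT4 (-0.13, adjusted p = 0.125) and CCT6 (0.03) did not pass. Thus 6 of 8 members were called higher, where 15.6% of genes were, 2 of them without overlap (4.92% of genes), and the median was 0.28 against 0.02 for all genes.

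The antibody experiments, which are separate sets of pools, did not give the same sizes. Within the NEB pools CCT2 had 0.47 (adjusted p = 0.000116), CCT8 0.29 (0.00638) and CCT7 0.18 (0.0400), but CCT3 (0.08), CCT5 (0.06) and CCT1 (0.12) did not pass. CCT4 there fell by 0.26 (adjusted p = 0.00514), from 54.9, 54.5 and 59.2 CPM to 45.9, 46.9 and 47.7. Within the SYS pools the values were higher for all 8 members, up to 0.66 for CCT2, 0.65 for CCT5 and 0.63 for CCT3, and 0 were called with 2 against 2 pools. CCT4 was at 37.7 and 40.0 CPM and then 40.7 and 40.5. The count of 6 fell to 3 when NEB basal pool 1 or 2 or SYS basal pool 1 or 2 was left out. Scaling by library totals shifted the median of all genes to -0.22 and left 1 member higher and 2 lower, with CCT1 at -0.016 and CCT6 at -0.21. Retinal and muscle markers were higher after HS in these inputs too (6 and 4 of 7 genes called); their part was not tested.

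In Mettl3 RNAi heads CCT2 was at 48.4, 54.3 and 58.1 CPM in basal NEB pools and 71.8, 66.3 and 74.7 after heat, and at 44.0 and 52.6 against 123 and 86.0 in the SYS pools. The HS pools again stood above all basal ones, as for 5.49% of genes. Its change was 0.69 (adjusted p = 0.00324), followed by CCT5 at 0.63 (0.0312), CCT8 at 0.55 (0.0261) and CCT3 at 0.50 (0.0416). These 4 of 8 members compare with 18.3% of genes called higher. With the pool number as a block, which the check of pairing calls for here, CCT2 alone was called (0.68, adjusted p = 0.0109), and the same count of 1 was found within either antibody experiment and without SYS basal pool 1 or 2. One SYS pool after HS, pool 1, stood high for all members, with 134 CPM for CCT3 and 112 for CCT5 against 89.1 and 66.5 in pool 2. The heat shock gene share of the SYS basal pools was raised under Mettl3 RNAi, as given above, and its part in these values was not tested. Between genotypes, no member was called in basal inputs (-0.11 to 0.06) or HS inputs (0.12 to 0.29) by edgeR or DESeq2, with 0 and 1 members at an unadjusted p under 0.05; 2.45% and 1.91% of genes were called higher and 1.58% and 0.810% lower.

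Heads and the brains of the Mettl3 experiment were compared by a term for the difference in heat response, added after their directions were seen. In controls, CCT3 differed by 0.63, CCT1 by 0.44, CCT7 by 0.42, CCT2 by 0.41 and CCT8 by 0.39 on the log2 scale, all higher in heads, and these 5 of 8 members were called, where 2.93% of genes were called higher. CCT4 (0.28), CCT5 (0.36) and CCT6 (0.24) did not pass. With the NEB inputs alone 0 members were called, and with the SYS inputs alone 1. Tissue, library kit and experiment differ together here and cannot be told apart. Brains of the Ythdc experiment did not enter this term. In the controls of that experiment the heat changes ran from -0.33 for CCT4 to 0.28 for CCT7, with none called.

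The immunoprecipitates were used to ask how well the subunits' RNA was recovered by antibodies to m6A. Since both antibodies change the recovery of most genes, with 37.4% called higher and 41.7% lower in basal SYS pools, the subunits are described relative to each other. CCT4 was the least recovered of the 8. Its log2 ratio of IP to input was -1.05 and -1.08 in the SYS basal control pools and -1.62, -0.94 and -1.36 in the NEB ones. After HS it was -1.02 in SYS pool 1 and nearly the same in pool 2, and -1.17, -1.33 and -1.13 in the NEB pools. CCT1 followed, with -0.38 and -0.41 in basal SYS and -0.94, -0.76 and -0.89 in basal NEB pools. CCT3 lay above 0 in every control pool, at 0.33 and 0.54 in basal SYS and 0.88, 0.84 and 1.04 in basal NEB pools. These per-pool ratios are scaled over all libraries of an antibody, and the fitted values below over the libraries compared, so they differ by a shift common to all genes.

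**Figure D4:**
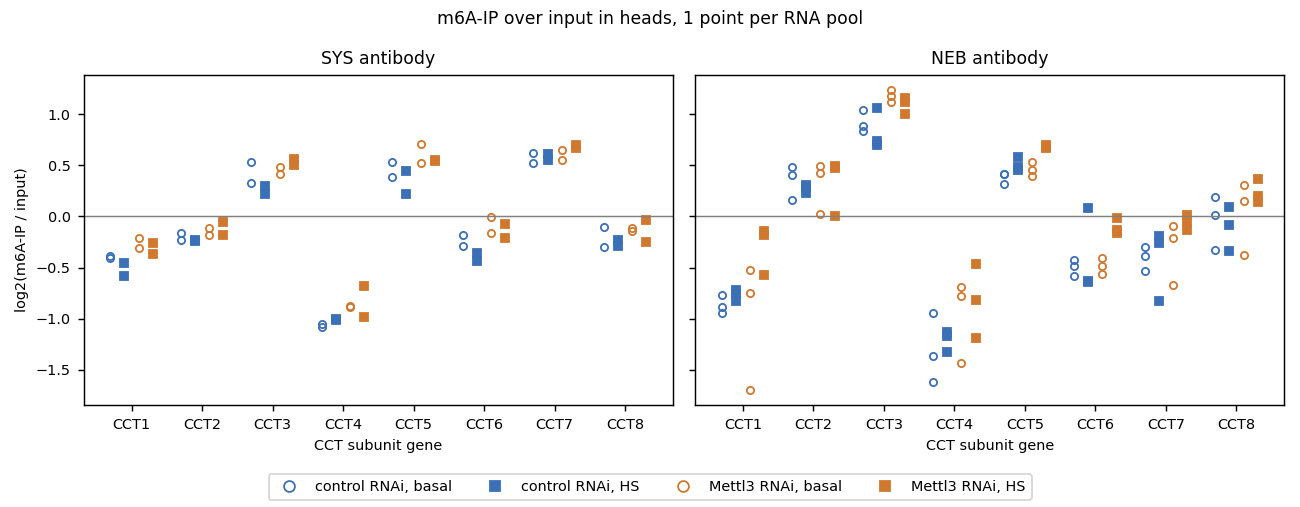
Log2 ratio of m6A-IP to input for each CCT subunit in each head pool (points), by genotype and condition, for the SYS and the NEB antibody. In control pools CCT4 is lowest with either antibody, and CCT7 lies above 0 in SYS control pools (0.52 to 0.63) and below 0 in NEB control pools (-0.82 to -0.19).

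In the fit with the RNA pool as a block, the basal SYS values were 0.54 for CCT7, 0.42 for CCT5 and 0.40 for CCT3, and -0.23 for CCT2, -0.24 for CCT8, -0.27 for CCT6, -0.43 for CCT1 and -1.10 for CCT4. All 8 were called, 3 higher and 5 lower, and likewise after HS (38.3% of genes higher and 38.3% lower). With 2 pools the spread was largely borrowed from all genes. Without the block 5 members were called at basal and 3 after HS. In the NEB experiment the basal values were 0.78 for CCT3, 0.24 for CCT5, -0.53 for CCT7, -0.63 for CCT6, -0.998 for CCT1 and -1.43 for CCT4, a total of 2 called higher and 4 lower (40.2% and 46.6% of genes), and the counts were the same after HS (39.0% and 44.7%). CCT2 (0.21, adjusted p = 0.0509) and CCT8 (-0.16) were not called. Scaling by library totals moved the all-gene median to -0.32 in basal SYS and -0.85 in basal NEB pools and turned the sign of CCT5 and CCT2 in the NEB fit (-0.43 and -0.46), whereas CCT1, CCT4 and CCT6 lay below 0 under either scaling.

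The antibodies differed most on CCT7. Its ratio was 0.52 and 0.63 in basal SYS control pools and -0.39, -0.30 and -0.53 in basal NEB ones, without overlap. A term for the difference, added after these values were seen, gave -1.08 ± 0.13 (NEB minus SYS, adjusted p = 3.73e-07) at basal and -1.12 ± 0.17 (adjusted p = 0.000164) after HS. CCT1 (-0.58) and CCT6 (-0.37) were also lower and CCT2 (0.43) and CCT3 (0.37) higher with NEB at basal, 5 of 8 members where 32.5% of genes were called higher and 33.9% lower. After HS 4 members were called, where 27.5% were higher and 28.8% lower.

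To ask whether the ratios depended on Mettl3, the difference between genotypes was tested in each antibody experiment. None of the 8 was called in any of the 4 tests by edgeR or DESeq2, while 9.02% of genes in basal SYS, 10.5% in HS SYS, 13.6% in basal NEB and 13.0% in HS NEB pools were called lower and 1.40%, 1.72%, 0.687% and 0.916% higher. Every member's difference was above 0, from 0.01 for CCT3 to 0.18 for CCT4 in basal SYS, 0.09 for CCT7 to 0.26 for CCT3 in HS SYS, 0.05 for CCT2 to 0.47 for CCT4 in basal NEB and 0.16 for CCT2 to 0.49 for CCT1 in HS NEB pools. The share of all genes above 0 was not set beside these signs, which are thus not read as particular to the members. At an unadjusted p under 0.05 stood 0, 1, 2 and 3 members, and 1 was called higher in basal NEB without pool 2. NEB libraries under Mettl3 RNAi were shallow, with 17 to 226 reads for CCT1, which limits these tests. The ratios also count reads over the whole gene, whereas the paper located most Mettl3-dependent m6A in the 5' untranslated region. In the main CCT transcripts, of 1904 to 2165 bases, that region spans 78 to 291 bases. A change limited to it could thus be missed here. No change with heat was detectable in the ratios of controls. Differences were -0.18 to 0.05 with SYS and -0.10 to 0.12 with NEB, with 0 called by either tool and 1 and 0 at an unadjusted p under 0.05 (1.33% and 0.270% of genes were called higher, 0.336% and 0.0300% lower).

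The motif GGACT, a common context of m6A in mammals, was counted in each main transcript as a property of the sequence. It occurred 4 times in CCT5, CCT6 and CCT8, 2 times in CCT7, 1 time in CCT3 and CCT4, and 0 times in CCT1 and CCT2. The median over 13956 coding genes was 0.845 per kb, and the members ran from 0 to 2.10 per kb. The GGACT counts did not follow the ratios in order. CCT3, with 1 site, ran from 0.84 to 1.04 in basal NEB control pools. There CCT6, with 4, ran from -0.58 to -0.43, and CCT8, also with 4, from -0.33 to 0.19. A second motif, AAACA, occurred 5 times in CCT2 and CCT3 and 3 times in CCT6. It occurred 1 time in CCT4, CCT5 and CCT7 and 0 times in CCT1 and CCT8. No level over all genes was taken for AAACA, and its relation to the ratios was not tested.

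Over the 35 brain libraries of the Mettl3 experiment the levels of the members were correlated with one another. Their 28 pairwise correlations of log2 CPM had a median of 0.827 and ran from 0.477 to 0.900. CCT2 was least like the rest, with a mean correlation of 0.610, where each of the others had 0.781 or more. Among 7958 genes of sufficient count, those closest to the members' mean profile were tsh, which encodes the homeotic zinc finger protein Teashirt (r = 0.890), CG1890, annotated as tubulin cofactor A (0.877), Fkbp59, an FK506-binding immunophilin that works with Hsp90 (0.876), E2f2, a repressive E2F factor (0.860), and DppIII, a dipeptidyl peptidase (0.858). The members make up that profile themselves. CCT2 had r = 0.731 with it, below each of these genes, and the other members had 0.897 to 0.943. These values describe 35 points that share conditions, replicate sets and scaling. No pairs of other genes were set beside the pairwise values, which are thus not read as particular to the members.

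The partners of the chaperonin were followed in the same libraries. In control brains after HS, 5 of 6 prefoldin genes fell, among them Pfdn1 (-0.75), Pfdn4 (-0.74) and Pfdn5 (-0.38), with a median of -0.35, in a fit that called 29.2% of all genes lower and 19.7% higher. Of the phosducin-like cochaperones CG7650 fell (-0.54) and viaf did not pass. In the same brains 3 of 5 tubulin cofactors fell (TBCD -0.61, TBCC -0.56, CG1890 -0.24). Of 8 tubulin genes tested 4 rose, the most betaTub85D (0.91), a beta-tubulin known from the testis, and gammaTub23C fell (-0.16), while of 6 actin genes Act88F rose (3.85), an actin of flight muscle, and Act42A fell (-0.57). Neither of the 2 mitochondrial chaperonin genes tested was called. At 6 h against basal brains, where 6 CCT members rose, the prefoldin genes had a median of -0.02, the phosducin-like genes -0.03, the tubulin genes -0.10 and the mitochondrial chaperonin genes 0.00, and none of these passed. CG1890 (0.53) and Act42A (0.44) rose and Act79B fell (-0.86), where 3.86% of all genes rose and 2.95% fell. From HS to 6 h, 4 of 6 prefoldin genes, 4 of 5 tubulin cofactors and 1 of 2 phosducin-like genes rose beside the 8 CCT members, where 32.2% of all genes did. In control head inputs after HS, 3 of 6 prefoldin genes fell (Pfdn4 -0.48, Pfdn1 -0.39, Pfdn5 -0.22), as did 2 of 5 tubulin cofactors, TBCC (-0.70) and TBCD (-0.37), where 19.2% of all genes fell, in the same libraries in which 6 CCT members rose.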

How the data were processed

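RNA from dissected brains (TruSeq stranded mRNA) and from head m6A-IP and input (SMARTer Stranded Total RNA V2, input being 10% of the fragmented polyA+ RNA) was sequenced. The authors trimmed reads with Trim Galore, aligned them to dm6 with STAR 2.7.3a and counted them per FlyBase gene in union mode, and the deposited table holds raw counts of 17562 genes in 87 libraries. From these counts, each comparison was fitted over all genes with edgeR 4.0.16 in R 4.3.3: TMM factors, filterByExpr (minimum count 10, total 15), quasi-likelihood test, Benjamini-Hochberg adjustment over all genes tested, called at an adjusted p under 0.05. Only the groups compared entered a fit. Head inputs had the antibody experiment as a term and m6A-IP fits the RNA pool as a block. CPM values are TMM-scaled within each brain experiment, over all head inputs, or over each antibody's libraries. Recovery was set against replicates 1-3, whose numbers it shares. The test was checked on simulated counts drawn independently for each library, so effects shared by replicate sets or pairs were not covered by that check.

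Every CCT gene was named in every comparison, beside fixed lists of prefoldin, phosducin-like, tubulin, actin, tubulin cofactor and mitochondrial chaperonin genes and cell type markers. The members and lists were chosen with earlier results of these data known. Alternatives were DESeq2 1.42.0, library size alone, no filter, the replicate number as a block, separate replicate sets or antibody experiments, and leaving out each library. Replicate numbers paired the libraries by the rule used (residual correlation of every pair over 0.1) for HS against basal in control brains (0.279 to 0.574, but a median of 0.0164 within replicates 1-3 and 4-6) and in Mettl3 RNAi head inputs (0.166 to 0.273), and for Mettl3 RNAi against control inputs at basal (0.141 to 0.628) and HS (0.146 to 0.667). With 1318964 counts in the shallowest library, precision is least in the NEB m6A-IP. Per the labels, 2 basal SYS m6A-IP samples of Mettl3 RNAi name no antibody; they were grouped by their titles.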

Additional observations from a re-analysis of the deposited data

Results flagged for a closer look

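Differences between groups stood out in 2 comparisons, both tested by a difference term that was chosen after the data were seen. The first was the heat response of head inputs minus that of brains of the Mettl3 experiment. There the term passed in control flies for CCT1 (0.44), CCT2 (0.41), CCT3 (0.63), CCT7 (0.42) and CCT8 (0.39) on the log2 scale. In Mettl3 RNAi flies it passed for CCT2 (0.73), CCT3 (0.90) and CCT4 (0.56). The Mettl3 RNAi count of 3 (2.28% of genes were called higher) was 1 without SYS basal pool 2, 5 without NEB HS pool 2 and 6 without HS brain replicate 4. In log2(IP/input), NEB minus SYS passed in basal control heads for CCT1 (-0.58), CCT2 (0.43), CCT3 (0.37), CCT6 (-0.37) and CCT7 (-1.08), and in HS control heads for CCT1 (-0.41), CCT2 (0.34), CCT3 (0.39) and CCT7 (-1.12). Within groups of 4 to 10 libraries, 32 member-by-group sets were tested for a library far from the others and 0 were found.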

How the results depend on the processing

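Counts are of called members. With library size alone, HS against basal gave 8 in place of 4 in control, Mettl3 RNAi and Ythdc RNAi brains, 3 in place of 0 in the Ythdc experiment's controls, 3 in place of 6 in control and 1 in place of 4 in Mettl3 RNAi head inputs. The 6 h rise under Mettl3 RNAi gave 2, Ythdc RNAi against control 2 (basal) and 0 (HS), Mettl3 RNAi minus control in HS SYS 1, heads minus brains 8 in either genotype, and the exact permutation tests 23 of 32 under 0.05 in place of 14. Signs turned for CCT2 (-0.26) and CCT8 (-0.39) in HS control and CCT8 (-0.37) in HS Ythdc RNAi brains, CCT1 (-0.016) and CCT6 (-0.21) in control head inputs, CCT3 (-0.076) and CCT5 (-0.0051) in HS SYS, CCT2 (-0.46) and CCT5 (-0.43) in basal NEB and CCT2 (-0.65), CCT3 (-0.094) and CCT5 (-0.42) in HS NEB ratios, and for NEB minus SYS in CCT3 (-0.056) at basal and CCT2 (-0.067) and CCT3 (-0.016) after HS. DESeq2 gave 2 for HS in Mettl3 RNAi and in Ythdc RNAi brains, 4 for basal Ythdc RNAi, 5 for basal SYS ratios and 6 for heads minus brains under Mettl3 RNAi. Without the filter, the 6 h rise under Mettl3 RNAi gave 0 and NEB minus SYS after HS 2. With a replicate block, that 6 h rise and basal Mettl3 RNAi against control brains gave 0 and HS in Mettl3 RNAi inputs 1; the block changed no other count by over 1.5 times, and the pairing rule was not met outside the comparisons named above. Without the pool block, SYS ratios gave 5 (basal) and 3 (HS). Replicates 4-6 alone gave 1 for HS in Mettl3 RNAi brains, and basal Mettl3 RNAi against control gave 0 in either replicate set. All 6 basal replicates gave 2 for the 6 h rise under Mettl3 RNAi, and 5 without replicates 1 and 3. SYS pools alone gave 0 and 1 for HS in control and Mettl3 RNAi inputs and 1 and 8 for heads minus brains; NEB pools alone gave 1 for Mettl3 RNAi inputs and 0 for heads minus brains in either genotype, and leaving out SYS HS pools 1 for Mettl3 RNAi inputs.

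Leaving out single libraries gave 1 to 8 for the 6 h rise in controls and 0 to 1 under Mettl3 RNAi, 0 to 2 for the 24 h change under Mettl3 RNAi, 0 to 2 and 0 to 3 for the genotype difference at 6 h and 24 h, 0 to 1 for basal Mettl3 RNAi against control, 0 to 1 for HS in the Ythdc experiment's controls, 2 to 3 in Ythdc RNAi, 0 to 6 for basal and 0 for HS Ythdc RNAi against control, 3 to 6 and 1 to 4 for control and Mettl3 RNAi head inputs, 0 to 1 for Mettl3 RNAi minus control in basal NEB and 1 to 6 for heads minus brains under Mettl3 RNAi. The cause of these changes was not tested. SYS ratios have 2 pools and no such check, and the shallow NEB libraries limit what their ratios can show.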
